A study of Mus musculus with 2 samples.

Results

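The subunits, inhibitors and activating kinase of nuclear factor κB (NF-κB) were examined in 4T1 cells, a mouse mammary carcinoma line that spreads to the lung. The set held 10 genes of the 21911 listed, taken by name: Rela, Nfkb1, Rel, Nfkb2 and Relb for the subunits, Nfkbia and Nfkbib for the inhibitors, and Ikbkb, Chuk and Ikbkg for the IκB kinase (IKK) complex. Of these, 7 were counted as canonical and 3 (Nfkb2, Relb and Chuk) as non-canonical. Cells of this single line received either PBS or potassium oxalate for 48 h, and 1 RNA library was sequenced per condition. The sources differ on the oxalate dose, which is 20 mM in the treatment protocol but 20 µM in the treatment label and in the published methods. The study used these libraries to look for transcripts that respond to oxalate.

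NF-κB is a family of dimeric transcription factors held in the cytoplasm by IκB proteins. In the canonical branch, receptors for inflammatory signals activate IKKβ with its scaffold NEMO. The complex marks IκBα and IκBβ for destruction and frees dimers such as p65 with p50. In the non-canonical branch, the kinase NIK activates IKKα, which triggers cutting of p100 to p52, the partner of RelB. Several of these genes, Nfkbia above all, are themselves NF-κB targets. The activity of the proteins depends on phosphorylation and location, which RNA does not show.

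Levels are given as FPKM, a fragment count corrected for transcript length and for the total mapped, so that genes of different length can be compared. The depth, estimated from the steps of low values, was about 56900000 fragments for PBS and 36500000 for oxalate. All 6 epithelial markers were present in both libraries, from 71.1 to 703 FPKM. Of 6 leukocyte markers, 5 were listed at 0 in both libraries and the highest value was 0.04 FPKM. Endothelial markers reached at most 0.05 FPKM and fibroblast markers 1.93 FPKM. Differences are log2((oxalate + 1)/(PBS + 1)) unless stated otherwise, and fold changes use the same sums. This is a log2(value + 1) scale on which changes of low genes look smaller than they are. Over the 10267 genes whose mean reached 1 FPKM, the median difference was 0.0031, and their central 90% ran from -0.27 to 0.26. All 10 members passed this filter. Since each condition had 1 library, no difference has a replicate check, no p-value is given, and an effect of oxalate cannot be told apart from a difference between cultures or libraries.

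All members were transcribed in 4T1 cells, and their levels were close in the oxalate and PBS libraries. Only Nfkbib, the gene of IκBβ, differed by at least 1.2-fold, with 50.89 FPKM under PBS and 64.02 FPKM under oxalate. The other members differed by at most 1.12-fold. Of all genes compared, 9.94% differed by at least 1.2-fold in either direction (4.75% higher and 5.19% lower), which 1 member in 10 is near. At the level of Nfkbib (38.3 to 86.2 FPKM), 5.11% of 1605 genes did. No member reached 1.5-fold, which 1.99% of all genes did, or 2-fold, which 0.653% did. Of the members, 7 were higher and 3 lower with oxalate, against 50.6% of all genes higher. The median difference was 0.037 over the 10 members. In bulk RNA, fewer cells with a transcript and less of it per cell cannot be told apart.

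**Figure D1:**
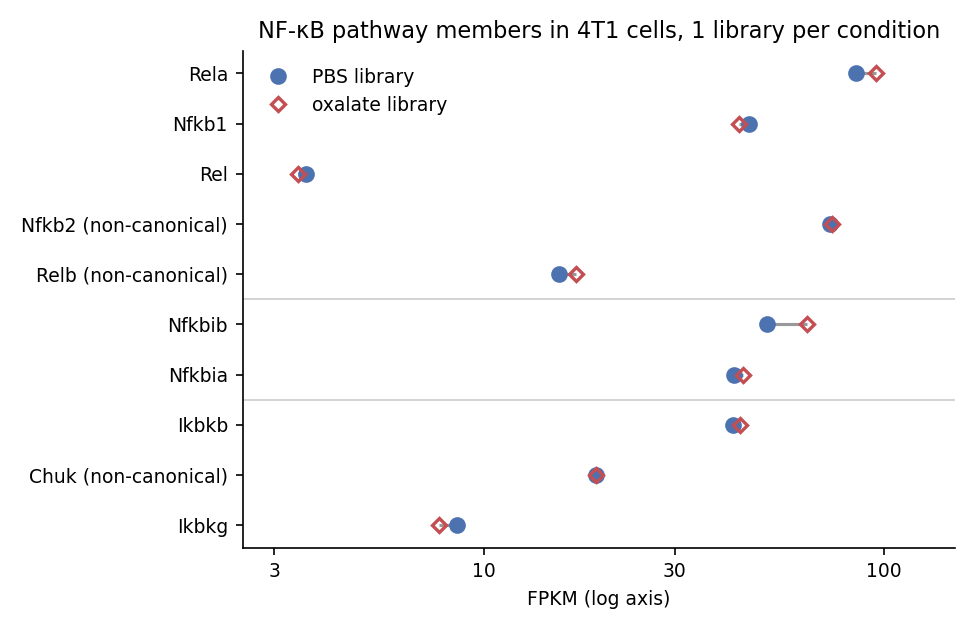
Level of each member in FPKM (log axis) in the PBS library (filled circles) and the oxalate library (open diamonds), 1 library each, grouped into subunits, IκB inhibitors and IKK complex. Values run from 3.43 FPKM for Rel to 95.15 FPKM for Rela, and the markers of each gene lie close together, with the widest gap at Nfkbib.

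Among the subunits, Rela (chromosome 19, 5637483 to 5648130, GRCm38) was the most abundant. It encodes p65, the subunit that carries the transactivation domain of the main canonical dimer. Rela was at 85.2 with PBS and 95.15 FPKM with oxalate, a difference of 0.16. Its level was above or equal to that of 89.4% of the genes compared. Nfkb1 (chromosome 3, 135584655 to 135691547), which encodes p105 and its product p50, went the other way, from 45.9 to 43.45 FPKM, a difference of -0.077. Rel (chromosome 11, 23736847 to 23770970), the gene of c-Rel, is best known from lymphocytes. It was the lowest member at 3.61 and 3.43 FPKM, a difference of -0.057, and ranked above or level with only 13.7% of the genes compared.

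The non-canonical subunits were also expressed. Nfkb2 (chromosome 19, 46304320 to 46312385), which encodes p100 and p52, was the second most abundant member in each library. It was at 73.16 with PBS and 74.02 FPKM with oxalate, a difference of 0.017. Relb (chromosome 7, 19606217 to 19629438), whose product pairs mainly with p52, was at 15.45 and 16.96 FPKM, a difference of 0.13. In each library Nfkb2 transcripts thus exceeded those of Relb, by 4.74 times with PBS and 4.36 times with oxalate.

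Expressed as shares of the summed FPKM of the 5 subunits, Rela held 38.2% with PBS and 40.8% with oxalate. Nfkb2 held 32.8% and 31.8%, and Nfkb1 20.6% and 18.6%. Relb and Rel together made up the small remainder, with 6.92% and 1.62% in the PBS library. The order of the 5 subunits was the same in both libraries. Among them the largest shift was that of Rela, by 2.68 percentage points. Rela transcripts were 1.86 times those of Nfkb1 with PBS and 2.19 times with oxalate.

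**Figure D2:**
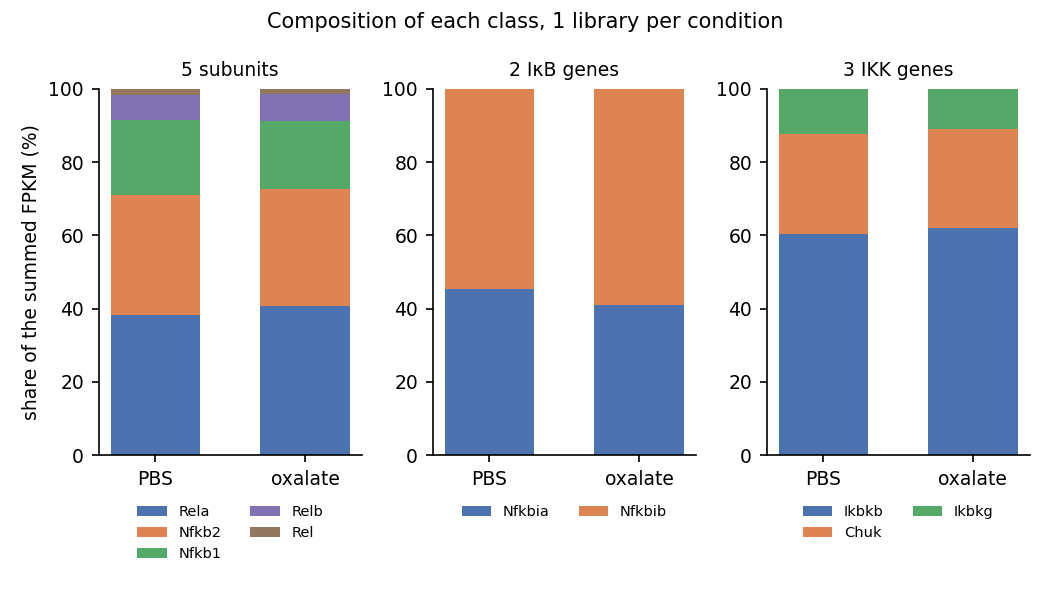
Share of each gene in the summed FPKM of its class (percent) for the 5 subunits, the 2 IκB genes and the 3 IKK genes, with 1 bar per library. The order of the genes is the same in the PBS and oxalate bars of each class, and the largest shift is between the 2 IκB genes, where Nfkbib goes from 54.6% to 59.0%.

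The inhibitors Nfkbia and Nfkbib encode IκBα and IκBβ, which mask the nuclear localization of canonical dimers. IκBα is rapidly resynthesized after NF-κB activation, whereas IκBβ follows the stimulus more slowly. Nfkbia (chromosome 12, 55489410 to 55492647) was at 42.26 with PBS and 44.42 FPKM with oxalate, a difference of 0.070. Nfkbib (chromosome 7, 28758251 to 28767512) showed the largest difference of the set, 0.33, or 1.25-fold higher with oxalate. A difference of this size in either direction was seen in 647 genes, 6.30% of those compared. At like levels (38.3 to 86.2 FPKM), 21 of 1605 genes, 1.31%, were raised at least as much as Nfkbib. This share counts higher values alone, and Nfkbib was singled out as the largest difference of the set. Nfkbib has 3 coding transcripts, and genes with several coding transcripts passed 1.2-fold more often (11.2%) than genes with 1 (6.16%). The part of transcript assignment in the Nfkbib value was not tested. Its exons overlap those of Sirt2 by 42 bases, and those of Ccer2 by 314 bases, on the opposite strand. Sirt2 was at 25.43 and 25.85 FPKM, and Ccer2 was listed at 0 in both libraries. The summed FPKM of both IκB genes was 0.417 times that of the subunits with PBS and 0.465 times with oxalate.

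The IKK genes kept the same order in both libraries. Ikbkb (chromosome 8, 22659212 to 22706589), which encodes the canonical kinase IKKβ, was at 42 with PBS and 43.72 FPKM with oxalate, a difference of 0.057. Chuk (chromosome 19, 44073335 to 44107480), which encodes IKKα, was the member that differed least, at 19.02 and 19.09 FPKM, a difference of 0.0050. IKKα sits in the canonical complex too but is the kinase that the non-canonical branch needs. Ikbkg (chromosome X, 74393290 to 74453854), which encodes the scaffold NEMO, was at 8.6 and 7.74 FPKM, a difference of -0.14. It was the largest fall of the set. Transcripts of Ikbkb were 2.21 times those of Chuk with PBS and 2.29 times with oxalate, and 4.88 and 5.65 times those of Ikbkg. The Ikbkg value is uncertain: the gene has 16 coding transcripts, and 418 of its exon bases are shared with G6pdx on the opposite strand, which was at 167 and 174 FPKM. Without strand, reads of the shared bases cannot be told apart. Nfkb2 likewise shares exon bases on the opposite strand, 299 with Psd, at 13.65 and 13.74 FPKM, and 531 with the long non-coding RNA gene AC114539.1, for which no value was used here.

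The order of the members by level was Rela, Nfkb2 and Nfkbib at the top and Chuk, Relb, Ikbkg and Rel at the bottom in each library. Nfkb1, Nfkbia and Ikbkb, between 42 and 45.9 FPKM, changed places: Nfkb1 was the highest of them with PBS and the lowest with oxalate. With 1 library per condition no spread separates these neighbours.

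Counting error was small beside the levels. At the estimated depth, the members had from 1454 (Relb) to 13627 (Nfkb2) fragments in the PBS library and from 902 (Ikbkg) to 8839 (Nfkb2) in the oxalate library. The exact 95% interval of the log2 ratio, without a pseudocount, lay above 0 for Rela (0.11 to 0.21), Nfkbib (0.26 to 0.40) and Relb (0.017 to 0.25). It lay below 0 for Nfkb1 (-0.13 to -0.028) and Ikbkg (-0.27 to -0.033). For Rel, Nfkbia, Ikbkb, Nfkb2 and Chuk it held 0, and at this depth no difference could be detected. The interval thus left out 0 for 5 of 10 members, beside 48.8% of all genes. The intervals cover counting error alone and say nothing of the spread between cultures.

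**Figure D3:**
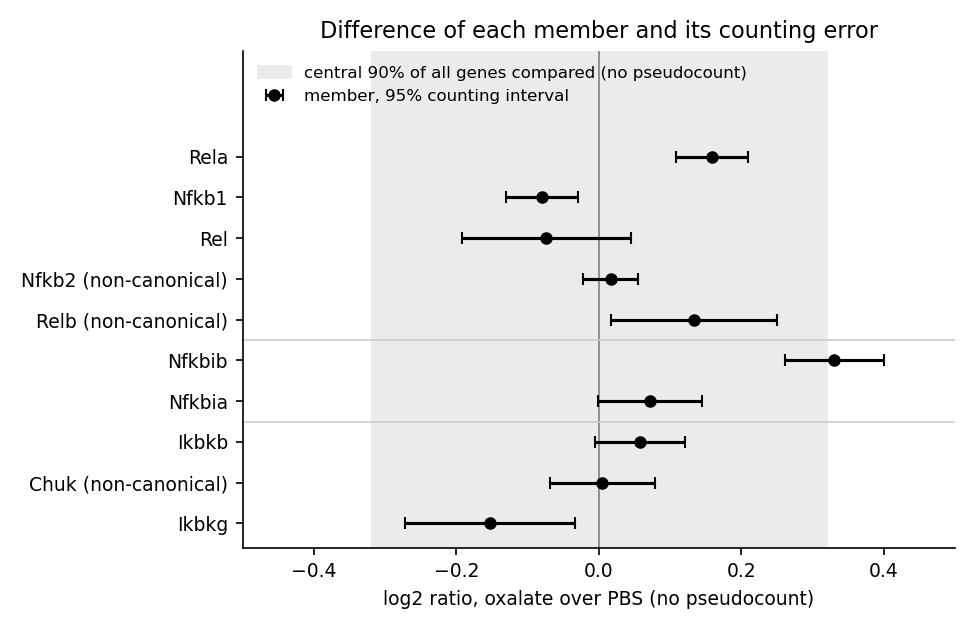
Log2 ratio of oxalate over PBS without a pseudocount for each member (points) with its exact 95% counting interval (bars), beside the central 90% of all genes compared on the same scale (grey, -0.32 to 0.32). The point of Nfkbib (0.33) lies just past the right edge of the grey range, with an interval that reaches into it. The other points lie inside, and 5 intervals cross 0.

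The canonical and non-canonical members were then set side by side. Of the 7 canonical members, 4 were higher and 3 lower with oxalate, with a median difference of 0.057 and a range from -0.14 to 0.33. All 3 non-canonical members were higher, by 0.0050 to 0.13, with a median of 0.017. With Chuk counted in both branches, the canonical median was 0.031. Summed FPKM of the canonical members went from 278 to 302, and that of the non-canonical members from 108 to 110. The canonical sum was thus 2.59 times the non-canonical sum with PBS and 2.74 times with oxalate. Nfkbib and Rela gave 13.13 and 9.95 FPKM of the canonical rise. The mean differences of the branches were nearly equal, 0.049 for each, so the gap between the medians rests on the choice of the median. The branches, with 7 and 3 genes in 1 library per condition, were not tested against each other.

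**Figure D4:**
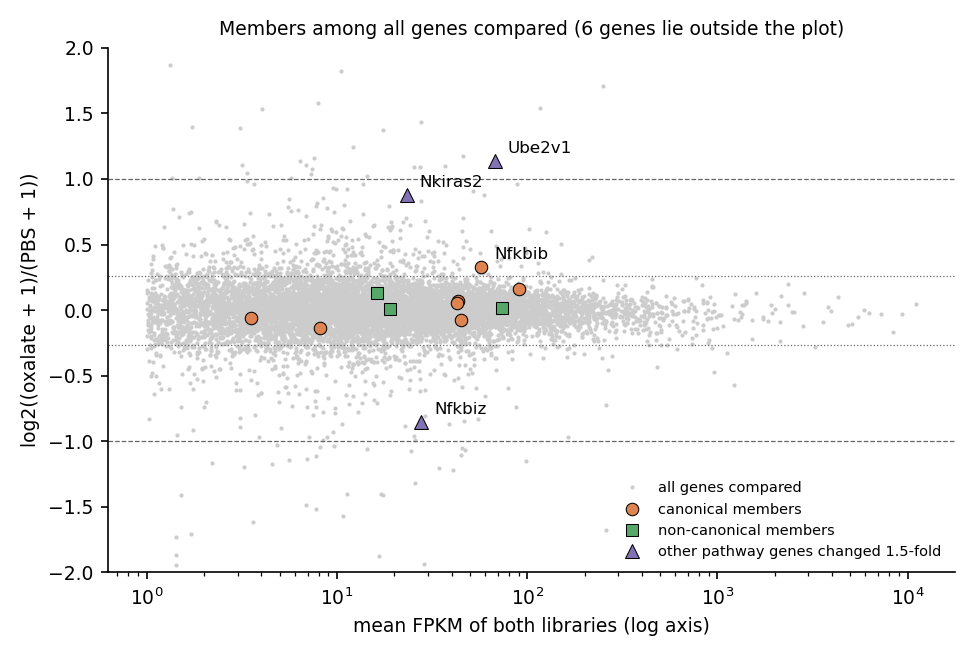
Log2 fold change with a pseudocount of 1 against mean FPKM (log axis) for all 10267 genes compared (grey), with canonical members (circles), non-canonical members (squares) and the 3 other pathway genes changed at least 1.5-fold (triangles). Dotted and dashed lines mark 1.2-fold and 2-fold, and 6 genes lie outside the vertical range. Members lie within the bulk of genes of their level except Nfkbib, which lies just above the upper dotted line.

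NF-κB binds a sequence of 10 bases known as the κB consensus, and several members carry it in their promoters, where NF-κB can raise their own transcription. RefSeq promoter windows (GRCm38.p6, 250 bases before to 50 after a start) were found for 7 of the 10 members, in 12 windows (not for Nfkb1, Relb and Ikbkb). A match on either strand, overlapping matches joined, was present for Nfkbia, Nfkb2 and Rel. Rela, Nfkbib, Chuk and Ikbkg had none in these windows. Over all genes with a window, 9.55% of 27025 had a match. The sequences below show some of the 6 distinct sites found before a start of these 3 genes. They are given in the direction of transcription, with the match in capitals. The stretch of Nfkbia is chr12:55492657-55492686 (minus strand), and its match begins 29 bases before the start. That of Rel is chr11:23771042-23771070 (minus strand). Those of Nfkb2 are chr19:46304689-46304717 and chr19:46305695-46305724 (plus strand), before separate starts. Further Nfkb2 sites, in chr19:46304716-46304736 and, before a further start, in chr19:46305449-46305478, are not shown.
Nfkbia: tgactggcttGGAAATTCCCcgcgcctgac
Rel: gtaagcagcGGGAAATCCCCccccctccc
Nfkb2, first start: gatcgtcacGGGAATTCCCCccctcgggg
Nfkb2, last start: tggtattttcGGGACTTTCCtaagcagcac

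The 3 genes that carry these matches were among the members that differed little, with 0.070 for Nfkbia, 0.017 for Nfkb2 and -0.057 for Rel. The counting interval of each held 0. So did those of Chuk, which had no match and differed least (0.0050), and of Ikbkb, which had no window. A link between a match and the difference was not tested. A match is a description of the sequence and does not show binding in 4T1 cells.

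Genes around the members were taken from lists of ligands, receptors, adaptors, non-canonical regulators, other IκB proteins, brakes and targets, 89 genes in all, of which 72 had a mean of at least 1 FPKM. Oxalate values exceeded PBS values for 35 and fell short for 37, and the median difference was -0.0030. At least 1.2-fold differences were found for 10 (4 higher and 6 lower), or 13.9%, beside 9.94% of all genes. At least 1.5-fold differences were found for 3, or 4.17%, beside 1.99% of all genes.

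Most ligands were near absent. Of 10, only Il1a passed the filter, and 3 were listed at 0 in both libraries. Il1a, an interleukin that signals through the canonical branch, stood at 115.39 with PBS and 113.7 FPKM with oxalate. Lta, the next highest ligand with PBS, was at 0.43 and 0.34 FPKM. The cytokine genes Tnf (0.07 and 0.25 FPKM), Il1b (0.16 and 0.47 FPKM) and Ltb (0.19 and 0.58 FPKM), named after their values were seen, were higher with oxalate. Their counting intervals of the log2 ratio lay above 0, but all 3 were under 1 FPKM in both libraries. The differences rest on an estimated 6 and 14 fragments for Tnf, 12 and 23 for Il1b, and 11 and 22 for Ltb. Among target genes under 1 FPKM, Ccl5 (0.6 and 0 FPKM) and Icam1 (0.66 and 0.44 FPKM) went the other way, with intervals below 0. The share of such intervals among all genes this low was not computed.

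Of 12 receptors, 9 passed the filter, with a median difference of -0.0033. Tnfrsf12a, the receptor of the cytokine TWEAK, was the most abundant at 267 and 247 FPKM. Ltbr, the lymphotoxin β receptor that feeds the non-canonical branch, was at 85.07 and 88.57 FPKM. Tnfrsf1b, a receptor of tumour necrosis factor, was at 11.73 and 10.92 FPKM. Tlr3, the endosomal sensor of double-stranded RNA, was the receptor that differed most, at 16.52 and 22.79 FPKM (1.36-fold higher with oxalate) and the single one past 1.2-fold. That is 11.1% of the receptors compared, beside 9.94% of all genes. Tlr2, a sensor of bacterial lipoproteins named after its values were seen (3.62 and 4.54 FPKM), lay just under 1.2-fold. Without a pseudocount its log2 ratio was 0.33, which is past that limit, but more genes of any kind then pass it. With a pseudocount of 0.001, 1409 of all genes differed by at least 1.2-fold, against 1021 with a pseudocount of 1.

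Among 19 adaptors and enzymes that lead to IKK, 18 were compared, with a median of -0.031. The chaperone gene Hsp90aa1 and its co-chaperone Cdc37, which stabilize IKK, were the highest, at 1042 and 949 FPKM and at 107 and 105 FPKM. The Hsp90aa1 value is uncertain, because 2255 of its 3281 bases are 99.5% identical to Gm12346, for which no value was used here. Ube2v1, a partner of the enzyme that builds the ubiquitin chains of this pathway, was at 42.12 with PBS and 93.84 FPKM with oxalate, a difference of 1.14. Its value is uncertain, because 1673 of its exon bases are shared on the same strand with Gm20431, which went from 44.23 to 8.88 FPKM, and several other annotated genes are nearly identical to parts of it. Map3k7, which encodes the IKK-activating kinase TAK1, was at 21.01 and 15.22 FPKM, 1.36-fold lower. Over 529 of its 5773 bases Map3k7 is 97.0% identical to Gm8188, for which no value was used here. Irak2, a lower gene of this list named after its values were seen, fell more than Map3k7, from 5.97 to 3.95 FPKM (1.41-fold). These 3 of 18 genes past 1.2-fold make 16.7%, beside 9.94% of all genes. Tradd, an adaptor of the tumour necrosis factor receptor, was at 5.97 and 6.82 FPKM.

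All 5 regulators of the non-canonical branch were expressed, with a median of 0.094. None of the 5 differed by 1.2-fold, beside 9.94% of all genes. Map3k14, the gene of NIK, was at 8.82 and 9.48 FPKM. The ubiquitin ligase components that keep NIK low were at 13.5 and 14.61 FPKM for Traf2, 24.1 and 22.55 FPKM for Traf3, 6.52 and 7.3 FPKM for Birc2, and 7.38 and 6.87 FPKM for Birc3. Traf3 and Birc3 were lower with oxalate and the other 3 were higher.

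Larger differences were found among the 6 other IκB proteins and their partners, of which 2 passed 1.5-fold in opposite directions. These 2 make 33.3% of a short list, beside 1.99% of all genes. Nfkbiz, the gene of the nuclear protein IκBζ, was at 36.01 with PBS and 19.49 FPKM with oxalate, 1.81-fold lower (difference -0.85). Nkiras2, which encodes a small GTPase-like protein that binds IκB and slows its degradation, was at 16.15 and 30.43 FPKM, 1.83-fold higher (difference 0.87). Differences at least this large were found in 0.916% and 0.877% of all genes. Each of these genes has 4 coding transcripts. Nkiras2 shares 287 exon bases with Dnajc7 on the opposite strand, which was at 160 and 157 FPKM. Bcl3, a nuclear IκB protein that partners p50 and p52, was at 12.98 and 11.3 FPKM.

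The 14 brakes and factors of IκB turnover ranged from -0.12 to 0.22. None passed 1.2-fold, beside 9.94% of all genes. Skp1a, a subunit of the ligase that marks IκB, was at 113 and 104 FPKM, and Btrc, the part of that ligase that recognizes IκB, was at 18.27 and 19.68 FPKM. Tax1bp1, a partner of the brake A20, was at 102 and 99.2 FPKM. Otulin, which removes linear ubiquitin chains, differed most, at 19.67 and 23.15 FPKM.

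NF-κB target genes covered a wide range of levels, from 0 to 556 FPKM. Of 28 targets, 8 had a mean under 10 FPKM and 24 were compared, 14 higher and 10 lower, with a median of 0.020. The highest were Cxcl5, a chemokine that attracts neutrophils, and Ptgs2, the gene of COX2. Cxcl5 was at 556 with PBS and 412 FPKM with oxalate, 1.35-fold lower, and Ptgs2 was at 486 and 497 FPKM. The chemokine gene Cxcl2 was at 8.86 and 7.24 FPKM. Irf1, an interferon response factor, was at 27.92 and 36.23 FPKM, 1.29-fold higher. Irf1 was the single target past 1.2-fold with a higher value, and 3 were lower by that much. Beside Cxcl5 these were the low genes Csf2, a colony-stimulating factor at 2.64 and 1.71 FPKM, and Saa3, a serum amyloid protein at 2.48 and 1.87 FPKM, both named after their values were seen. Cxcl2 lay just under the limit, and past it without a pseudocount (log2 ratio -0.29). With the pseudocount, no target compared reached 1.5-fold. The 4 of 24 targets past 1.2-fold make 16.7%, beside 9.94% of all genes. The target list shares 5 genes with the other lists, and its direction was not the same for its median and its mean (-0.030).

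**Figure D5:**
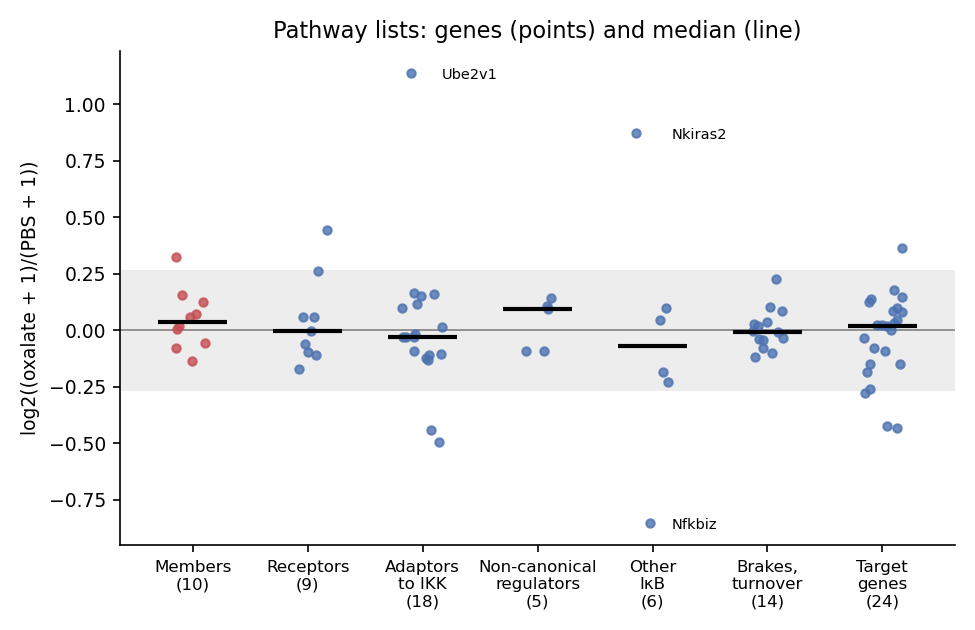
Log2 fold change with a pseudocount of 1 for the genes of each list with a mean of at least 1 FPKM (points; number of genes in parentheses; ligands, with 1 gene, left out) and the list median (black line), with the members in red and differences under 1.2-fold shaded grey. Medians lie between -0.070 and 0.094, and Ube2v1, Nkiras2 and Nfkbiz, which are named, are the genes past 1.5-fold.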

How the data were processed

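RNA from 4T1 cells was sequenced in 2 libraries, 1 per condition. The authors deposited 1 FPKM value per Ensembl gene and library, rounded to 2 decimals. The submitters' processing notes name Bowtie2 2.2.8 and TopHat2 2.1.1. The quantification tool, genome build, annotation and filters are not given in the sources used here, nor is strand-specific counting.

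Symbols, coordinates and transcript lengths came from GENCODE M21 (GRCm38), in which 21848 of 21911 identifiers were found. Fold changes were log2((oxalate + 1)/(PBS + 1)), with a pseudocount of 1 FPKM, over genes with a mean of at least 1. Fragments were estimated from the steps of low FPKM values in genes under 0.6 kb with 1 transcript, where each of 74 values (PBS) and 59 (oxalate) came within 0.2 of a whole number. Counting intervals are exact (Clopper-Pearson, 95%) and rest on the mean length of coding transcripts. Near copies and shared exons were searched with blastn 2.17.0 and the annotation. With no replicates, no test between conditions was possible.

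The members and gene lists were chosen with earlier results of these data known. In each pathway list, the naming rule took the 2 genes highest with PBS and the 3 with the largest change at a mean of at least 5 FPKM. It also took every gene changed at least 1.5-fold with a mean of at least 1 FPKM. Tnf, Il1b, Ltb, Tlr2, Irak2, Birc3, Ccl5, Icam1, Csf2 and Saa3 were named outside this rule, with their values known. The scripts were tested on simulated data. Alternatives were other pseudocounts, scalings, filters, thresholds, means for medians, Chuk in both branches and the longest transcript. Calculations ran in Python 3.11.15 with pandas 2.3.3, numpy 2.4.6 and scipy 1.17.1, and plots in matplotlib 3.10.9.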

Additional observations from a re-analysis of the deposited data

How the results depend on the processing

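No paired analysis was possible because the conditions have 1 library apiece, and no library could be left out. The 40 values of the members under other pseudocounts and scalings kept their direction and stayed within the width of the counting interval. Nfkbib stayed the single member past 1.2-fold under each alternative of pseudocount, scaling and filter run. At a threshold of 1.5-fold or 2-fold the count of members was 0, since the limit is higher. The 204 genes past 1.5-fold became 309 with a pseudocount of 0.001. With 1 FPKM added to each subunit, the PBS share of Relb went from 6.92% to 7.20%, and that of Rel from 1.62% to 2.02% with PBS and from 1.47% to 1.86% with oxalate. The branch medians stayed above 0 under every alternative run, but with means the non-canonical value rose from 0.017 to 0.049, equal to the canonical 0.049. For the medians of receptors, adaptors, other IκB proteins, brakes and targets, at least 1 alternative had the other sign, so no direction is given for these lists. With the longest coding transcript for the estimated fragments, 6 members instead of 5 had an interval that left out 0, the added one being Ikbkb. Rescaling both libraries to 1 FPKM sum raised the differences of the members by 0.016 to 0.021.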
